A study of Homo sapiens with 24 samples.

Results

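The 10 heat shock chaperone genes described here are HSPA1A, HSPA1B, HSPA6, HSPA8, HSPH1, HSP90AA1, DNAJB1, HSPB1, HSPD1 and BAG3. They were taken by name from the 60641 gene symbols that all 24 libraries shared, with no filter on measured values. The list was chosen with earlier results of these data known, so it is not blind to them. The libraries were rRNA-depleted RNA-seq libraries from 2 human cancer cell lines, the lung line A549 and the colon line HCT116. In knock-out (KO) cells, CRISPR/Cas9 had removed the sequence that holds the DNA-binding domain (DBD) of 1 long noncoding transcript, named MSTRG.2513.6, MSTRG.4401.1 or MSTRG.34636.7, and wild-type (WT) cells kept it. The 8 groups of 3 libraries were A549 MSTRG.2513.6 KO, A549 MSTRG.4401.1 KO, A549 WT B, HCT116 MSTRG.2513.6 KO, HCT116 MSTRG.4401.1 KO, HCT116 WT B, HCT116 MSTRG.34636.7 KO and HCT116 WT A. The letters A and B stand in the library names and their meaning was not given, and neither was the number of clones in a KO group nor whether the libraries of a group came from separate cultures, so that the p-values measure the spread between these libraries, which may be technical. No library was labelled as heat-shocked.

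Heat shock proteins are molecular chaperones: they bind unfolded or partly folded proteins, keep them from clumping and help them reach or regain their folded form. HSP70 proteins (here HSPA1A, HSPA1B, HSPA6 and HSPA8) work in cycles of ATP binding and hydrolysis, J domain proteins such as DNAJB1 bring them clients and start hydrolysis, and HSPH1 and BAG3 help them exchange the nucleotide. HSP90AA1 acts later on many kinases and receptors, HSPD1 forms the folding chamber of the mitochondrion and HSPB1 is a small heat shock protein that holds unfolded proteins without ATP. When unfolded proteins accumulate, the transcription factor HSF1 binds heat shock elements, which are alternating GAA and TTC units, and raises most of these genes. HSPA8 is the constitutive HSP70, and cancer cells are known for making large amounts of several of these chaperones without any heat.

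Total counts ran from 25799359 in the A549 MSTRG.4401.1 KO library S24 to 102261808 in the HCT116 WT A library 3A, so that 3 counts were worth 0.0293 to 0.116 CPM (the standard unit that scales each count by the total of its library). Libraries S8 and S9, labelled HCT116 MSTRG.2513.6 KO, stood apart from their label. Across genes their log2 values had Pearson's r of 0.971 to 0.995 with A549 libraries (18 pairs) but 0.916 to 0.927 with the other HCT116 libraries (26 pairs). They held 4323.9 and 4611.0 CPM of ALDH1A1, which A549 cells express strongly, and 0.890 and 1.31 CPM of the epithelial marker EPCAM, against 111.2 CPM of EPCAM in S11 of the same group. Results of that group are therefore given with and without S8 and S9. The lung markers SFTPC, SFTPB and NKX2-1 and the intestinal marker ASCL2 stayed at or under 2.60 CPM in every library, as did fibroblast and leukocyte markers. The intestinal marker VIL1 was at 5.57, 6.94 and 4.15 CPM in S23, S24 and S25 of A549 MSTRG.4401.1 KO, above A549 WT B (1.68 to 2.17 CPM) and every HCT116 library (0.334 to 2.04 CPM), and its part in the results of that group was not tested. Mitochondrially encoded transcripts took 6.10% ± 2.30 (SD, n = 3) of the counts in A549 MSTRG.4401.1 KO and 2.11% ± 0.221 in A549 WT B. The targeted MSTRG transcripts themselves were not analysed here.

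HSPA1A (ENSG00000204389.10, chr6:31815543-31817946, + strand, GRCh38) and HSPA1B (ENSG00000204388.7, chr6:31827738-31830254, + strand) are neighbouring genes of 1 exon each, and their counts need care because they encode the same protein from almost the same sequence. Their coding sequences were identical at 1922 of 1926 positions. The 4 differences, with the base of HSPA1A first and counted from 1 at the A of the start codon, were G1710T, G1860C, C1905T and A1920G, each at codon position 3. Of the 100-base stretches of the HSPA1A coding sequence, 90.9% occurred unchanged in HSPA1B, and of the 150-base stretches 87.8%. The untranslated ends differed more, with 89.2% identity over the 5′ and 67.6% over the 3′ end. The stretches of 60 bases below are shown, one because a read from it cannot be assigned to either gene (coding positions 825 to 884, on both genes) and one of each gene because they hold a pair of the differing bases, in capitals (positions 1846 to 1905).
HSPA1A and HSPA1B: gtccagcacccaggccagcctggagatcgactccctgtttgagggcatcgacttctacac
HSPA1A: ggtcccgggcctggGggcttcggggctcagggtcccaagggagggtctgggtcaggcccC
HSPA1B: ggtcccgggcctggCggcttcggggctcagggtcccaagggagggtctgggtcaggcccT

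The other members lie apart in the genome (GRCh38, GENCODE annotation): HSPA6 at chr1:161524540-161526894 with 1 exon, HSPA8 at chr11:123057489-123063230 with 9 exons, HSPH1 at chr13:31134973-31162388 with 18 exons, HSP90AA1 at chr14:102080742-102139699 with 11 exons, DNAJB1 at chr19:14514769-14560391 with 3 exons, HSPB1 at chr7:76302673-76304295 with 3 exons, HSPD1 at chr2:197486584-197516737 with 12 exons and BAG3 at chr10:119651380-119677819 with 4 exons. HSPA6 has a near-identical neighbouring copy, HSPA7, and HSPA8, HSPD1, HSPB1 and HSP90AA1 have processed pseudogenes, so reads that match several places add uncertainty to their counts. All 10 members had a RefSeq promoter (GRCh38.p14), of which the 250 bases before the start were searched on the gene's strand and its complement. The letters GAANNTTC were found in 7 of the 10 members and in 5.78% of 35116 promoters. The letters TTCNNGAA were found in 4 members and in 6.62% of promoters. A run of 3 alternating units, GAA and TTC in turn with any 2 bases between them, overlaps both and was found in HSPA6, HSPA8, HSP90AA1 and HSPD1, and in 0.441% of promoters. HSPH1, DNAJB1 and BAG3 had none of these letters in the window, which says nothing of other start sites: the windows of HSPA8, HSP90AA1, DNAJB1 and HSPD1 lie inside the GENCODE span of their gene. The stretches of 60 bases that hold the units are shown because they are what these members share in sequence, in the direction of the gene, with capitals for the alternating run, or for GAANNTTC where there is no run, and a further TTCNNGAA of the HSP90AA1 stretch left in lower case (HSPA1A chr6:31815411-31815470 +, HSPA1B chr6:31827607-31827666 +, HSPA6 chr1:161524442-161524501 +, HSPA8 chr11:123062327-123062386 − and chr11:123062156-123062215 −, HSP90AA1 chr14:102087097-102087156 −, HSPB1 chr7:76302465-76302524 +, HSPD1 chr2:197500031-197500090 −).
HSPA1A: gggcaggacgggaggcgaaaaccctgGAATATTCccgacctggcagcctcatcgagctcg
HSPA1B: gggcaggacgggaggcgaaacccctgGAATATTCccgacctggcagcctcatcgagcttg
HSPA6: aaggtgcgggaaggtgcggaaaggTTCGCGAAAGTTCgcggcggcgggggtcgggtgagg
HSPA8, far stretch: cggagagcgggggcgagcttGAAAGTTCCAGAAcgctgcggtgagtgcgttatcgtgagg
HSPA8, near stretch: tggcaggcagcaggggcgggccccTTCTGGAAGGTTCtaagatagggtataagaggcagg
HSP90AA1: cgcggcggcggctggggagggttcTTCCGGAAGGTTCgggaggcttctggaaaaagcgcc
HSPB1: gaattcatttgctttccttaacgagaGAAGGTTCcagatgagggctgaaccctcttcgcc
HSPD1: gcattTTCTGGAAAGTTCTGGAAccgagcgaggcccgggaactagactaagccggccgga

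Summed, the 10 genes held 2401.2 to 6030.1 CPM of a library. HSPA8 and HSP90AA1 made up 56.9% to 73.0% of that sum in every library, and HSPA6 at most 0.0306%. The sum was 5933.3 ± 135.3 CPM (SD, n = 3) in HCT116 WT B, 4788.6 ± 282.8 in A549 WT B and 5898.7 ± 42.2 in HCT116 MSTRG.4401.1 KO. It was lower in the libraries numbered A, at 3224.1 ± 326.4 CPM in HCT116 WT A and 3336.2 ± 45.5 CPM in HCT116 MSTRG.34636.7 KO. It was also lower in A549 MSTRG.2513.6 KO, at 3519.5 ± 531.8 CPM, and in S8, S9 and S11 of HCT116 MSTRG.2513.6 KO, at 3576.5 ± 128.7 CPM. The lowest sum was that of A549 MSTRG.4401.1 KO, at 2893.6 ± 572.5 CPM.

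**Figure D1:**
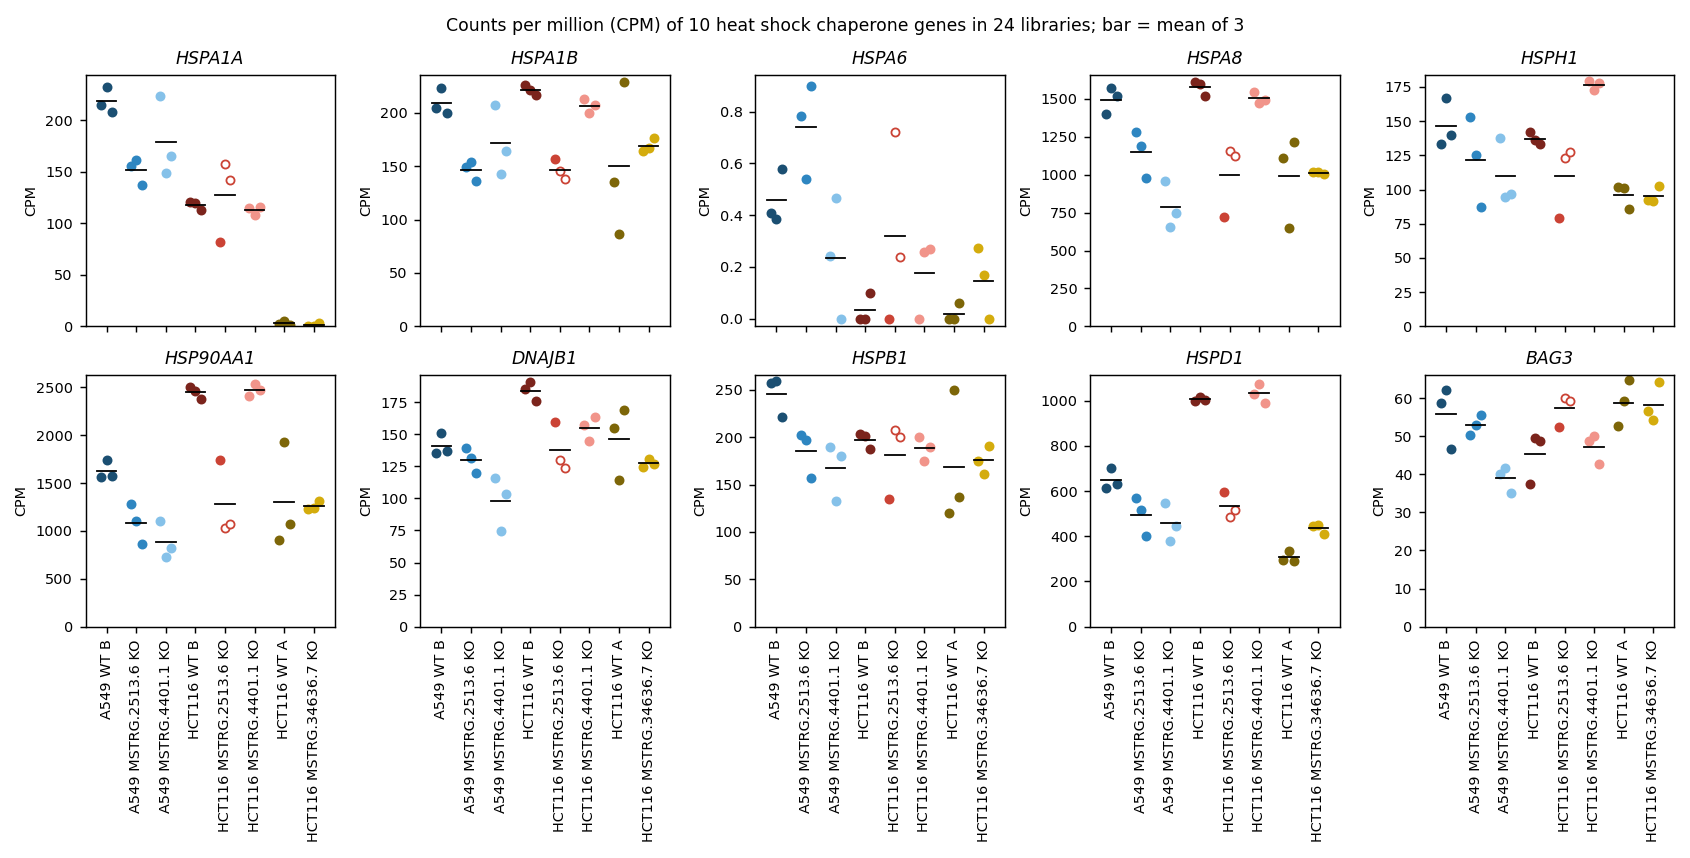
Level of each of the 10 genes (CPM, linear axis from 0, one panel per gene) in the 24 libraries by group; each point is 1 library, each bar the mean of 3, and open points are S8 and S9. HSPA1A lies at 0.404 to 5.30 CPM in the 6 libraries numbered A and at 81.8 CPM or more in all others, while HSPA8 and HSP90AA1 are the most abundant genes in each group.

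To compare levels between genes, CPM was divided by the length of the GENCODE canonical transcript (CPM per kb). In A549 WT B the constitutive HSPA8 was highest, at 661.0 ± 39.2 CPM per kb (SD, n = 3), followed by HSP90AA1 at 503.7 ± 31.1, HSPB1 at 316.5 ± 27.4 and HSPD1 at 289.0 ± 20.3. The inducible HSPA1A (90.9 ± 5.37 CPM per kb) and HSPA1B (83.1 ± 4.97) came next, then DNAJB1 at 62.8 ± 3.82, HSPH1 at 28.0 ± 3.36 and BAG3 at 21.8 ± 3.18. In this order HSPB1 and HSPD1 overlapped over their 3 libraries, as did HSPA1A and HSPA1B, and the other neighbours did not. HSPA6, which is known as a strictly stress-induced HSP70, stood last at 0.194 ± 0.0444 CPM per kb.

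In HCT116 WT B the order began with HSP90AA1 at 758.4 ± 18.6 CPM per kb, ahead of HSPA8 at 696.3 ± 22.9 and HSPD1 at 447.9 ± 3.58, and no neighbours overlapped. HSPA1B (88.1 ± 1.88 CPM per kb) and HSPA1A (49.1 ± 1.72) stood on either side of DNAJB1 (82.1 ± 3.30). In HCT116 WT A the levels of HSPA8 (437.2 ± 132.8 CPM per kb), HSP90AA1 (404.0 ± 168.9) and HSPB1 (217.5 ± 90.9) followed each other, and HSP90AA1 overlapped with both. DNAJB1 (65.1 ± 12.6) overlapped with HSPA1B (59.7 ± 28.7), and the other neighbours did not overlap. HSPA1A, at 1.16 ± 0.944 CPM per kb, stood there between HSPH1 at 18.3 ± 1.70 and HSPA6 at 0.00830 ± 0.0144.

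**Figure D2:**
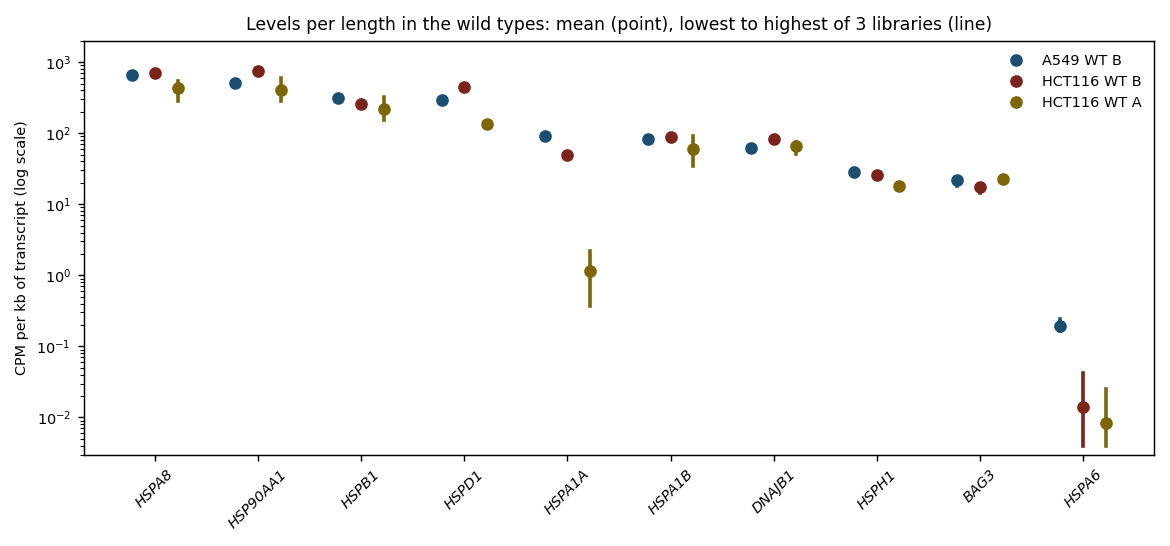
Level per transcript length (CPM per kb, log axis) of the 10 genes in the 3 wild-type groups; points are means of 3 libraries and lines run from the lowest to the highest, and a line that reaches 0 stops at the axis. HSPA1A falls from 49.1 CPM per kb in HCT116 WT B to 1.16 in HCT116 WT A, while HSPA1B moves from 88.1 to 59.7.

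HSPA6 was close to the limit of detection. Its counts ran from 23 to 24 per library in A549 WT B and from 31 to 50 in A549 MSTRG.2513.6 KO, the group where it was highest. In A549 MSTRG.4401.1 KO it had 8, 12 and 0 counts. The HCT116 WT B libraries had 0, 0 and 6 counts and the HCT116 WT A libraries 0, 0 and 6, and a count of 0 allows up to the value of 3 counts given above. It passed the filter on low counts in the comparisons between A549 groups and between the lines, and not in those within HCT116.

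The share of HSPA1A in the summed counts of HSPA1A and HSPA1B separated the libraries into 3 sets. In the 9 A549 libraries it was 50.1% to 51.8%, that is, the counts were split about evenly. In HCT116 libraries S10 to S16, which include HCT116 WT B, HCT116 MSTRG.4401.1 KO and S11, it was 34.3% to 35.7%. In S8 and S9 it was 52.0% (exact binomial 95% interval 51.1 to 52.8) and 50.8% (49.9 to 51.7), in the range of A549 or just above it.

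In the libraries numbered A, HSPA1A was nearly without counts. Its share was 0.245%, 0.450% and 1.71% in HCT116 MSTRG.34636.7 KO libraries 1A, 2A and 3A, and 1.58%, 5.76% and 0.387% in the same numbers of HCT116 WT A. HSPA1A had 37 to 288 counts in these 6 libraries, beside 4256 to 23400 counts of HSPA1B. No value lay between 5.76% and 34.3%. These intervals cover counting error only, and because most coding reads fit both genes, the share also depends on how shared reads were assigned, which was not given in the sources used here. The part of read assignment in the split between the A and the other libraries was not tested.

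**Figure D3:**
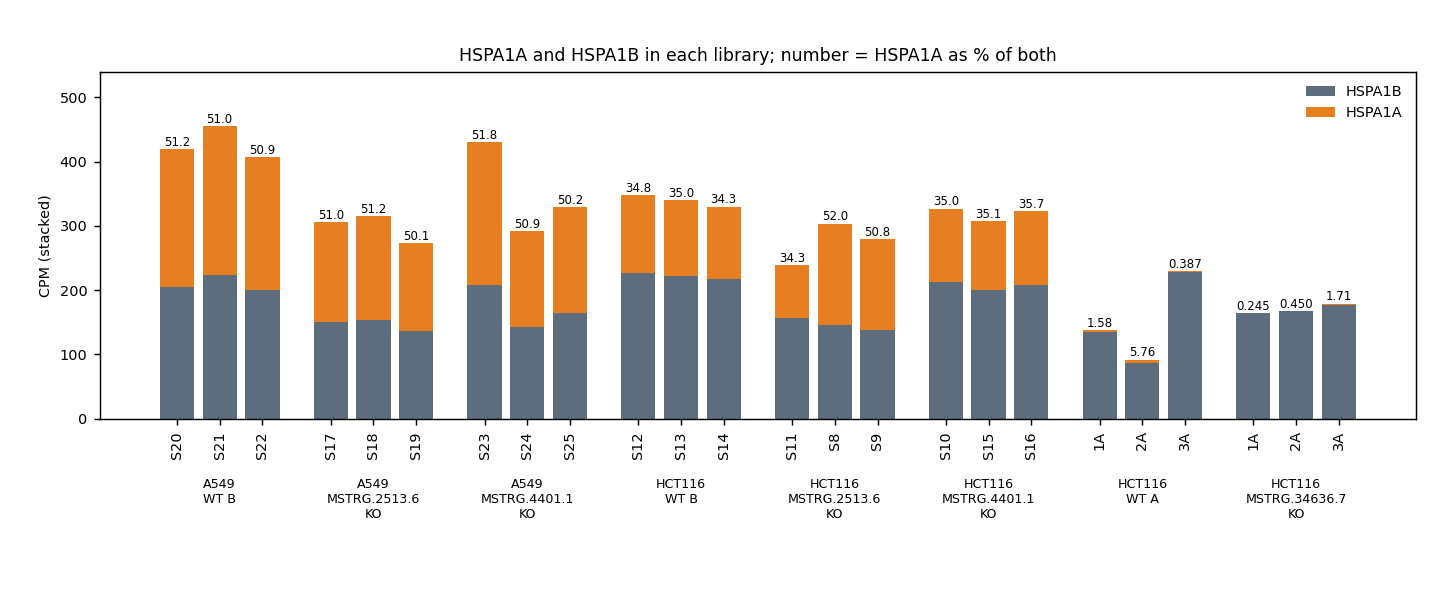
Summed level of HSPA1A and HSPA1B (CPM, stacked bars from 0, one bar per library, grouped), with the percent of HSPA1A printed at each bar. The share is 50.1% to 52.0% in A549 libraries and in S8 and S9, 34.3% to 35.7% in S10 to S16, and 0.245% to 5.76% in the 6 libraries numbered A.

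The first question was whether the chaperone genes differ between KO and WT cells of the same line. A gene was called where the edgeR quasi-likelihood test gave an adjusted p (Benjamini-Hochberg, over all genes tested) under 0.1 and the change was over 2-fold, and was described as past the adjusted p alone where it was smaller. In A549 MSTRG.2513.6 KO none of the 10 members was called by edgeR, against 2.92% of 25666 genes, or by DESeq2, against 3.91%. In edgeR 6 members had an unadjusted p under 0.05. The share of all genes at that p was not counted, here or in the comparisons below, so such counts have no background. The inducible HSP70 pair was past the adjusted p, as were 5.97% of all genes, of which the lower ones made up 3.19% of genes tested. HSPA1A was at 155.8, 161.2 and 137.0 CPM in the KO libraries S17, S18 and S19 and at 214.7, 232.5 and 207.4 CPM in the WT libraries S20, S21 and S22. The groups did not overlap, and the difference was −0.53 on the log2 scale (SE 0.119, edgeR adjusted p = 0.0559), or 1.44-fold lower. HSPA1B was lower by the same amount (146.6 ± 9.02 against 209.3 ± 12.5 CPM, log2(fold change) −0.51, SE 0.111, edgeR adjusted p = 0.0483), and so was their sum (−0.52, SE 0.116, edgeR adjusted p = 0.0536), which does not depend on how reads are split between them. HSPA1A and HSPA1B were each past the adjusted p in 3 of the 6 fits that left out 1 library, and not without S18, S20 or S21 (adjusted p up to 0.240 for HSPA1A). Neither passed with no filter on low counts or in 1 fit of all A549 libraries.

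The 8 other members did not pass in A549 MSTRG.2513.6 KO. HSP90AA1 was at 1280.0, 1105.4 and 863.5 CPM, below all 3 WT libraries (1560.4 to 1741.5 CPM), with a log2(fold change) of −0.58 (SE 0.170, edgeR adjusted p = 0.129). HSPA8 (−0.37), HSPB1 (−0.41) and HSPD1 (−0.38) also had lower values without overlap, with adjusted p of 0.227, 0.228 and 0.275 in edgeR. The share of all genes without overlap between groups was not counted, here or in the other comparisons, so a lack of overlap has no background. In each of these 4 genes library S19 was the lowest. DNAJB1 (−0.11), BAG3 (−0.09) and HSPH1 (−0.26) overlapped with WT. HSPA6 had a log2(fold change) of 0.70 (SE 0.338, edgeR adjusted p = 0.355). The median over the 10 members was −0.38, and −0.03 over all genes tested.

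In A549 MSTRG.4401.1 KO, compared with the same 3 WT libraries, 9 of the 10 members were past the adjusted p and all 9 were lower. The background was wide: 43.7% of 24979 genes were past the adjusted p there, 22.4% of genes were past it and lower, and 15.4% were called. Of the called genes 71.9% were higher, and 83.1% under upper-quartile normalization, which raised the median of all genes from 0.12 to 0.28. HSPA8 was the only member called. It was at 956.6, 657.5 and 745.7 CPM in the KO libraries S23, S24 and S25 and at 1399.5, 1573.5 and 1516.5 CPM in S20, S21 and S22. The groups were far apart, and HSPA8 fell by 1.01 on the log2 scale (SE 0.152, edgeR adjusted p = 0.00252), a 2.01-fold lower level. This value sat at the 2-fold threshold, and the call was lost under upper-quartile normalization (−0.85) and without library S24 (−0.90).

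HSP90AA1 fell by 0.96 (SE 0.164, edgeR adjusted p = 0.00405), with 1102.0, 731.7 and 823.5 CPM in the KO libraries, again below every WT library. The small chaperone HSPB1 was at 189.8, 132.7 and 179.9 CPM against 257.4, 259.0 and 221.4 CPM (log2(fold change) −0.64, SE 0.163, edgeR adjusted p = 0.0188). The mitochondrial HSPD1 was at 549.1, 376.9 and 443.7 CPM against 612.9, 700.1 and 633.1 CPM (−0.59, SE 0.149, edgeR adjusted p = 0.0179). In these 3 genes as in HSPA8, S23 was the highest KO library and S24 the lowest.

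The cochaperones were lower too. DNAJB1 was at 115.7, 74.4 and 103.7 CPM against 135.2 to 150.7 CPM in WT (log2(fold change) −0.61, SE 0.162, edgeR adjusted p = 0.0222). BAG3, which joins HSP70 to small heat shock proteins and to autophagy, was at 40.1, 41.6 and 35.1 CPM against 58.8, 62.1 and 46.7 CPM (−0.61, SE 0.147, edgeR adjusted p = 0.0152). HSPH1 overlapped with WT in 1 library, S23 (137.4 CPM), and fell by 0.51 (SE 0.154, edgeR adjusted p = 0.0359). The inducible HSP70 pair moved least: the 3 KO libraries had 430.8, 291.3 and 329.4 CPM of HSPA1A and HSPA1B together, against 419.3, 455.9 and 407.2 CPM, so S23 lay within the WT range. HSPA1A and HSPA1B each had a log2(fold change) of −0.37 (edgeR adjusted p = 0.0893 and 0.0749). Neither passed under upper-quartile normalization (−0.21 each, edgeR adjusted p = 0.261 and 0.231) or with no filter on low counts. Under either setting 7 of the 10 members passed, all lower. Of all genes 44.7% passed under upper-quartile normalization (15.6% passed and lower) and 13.4% with no filter (8.44% passed and lower). HSPA6 had −1.03 (SE 0.815, edgeR adjusted p = 0.353) on few counts.

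The median over the 10 members was −0.61 in A549 MSTRG.4401.1 KO and 0.12 over all genes tested. The mitochondrially encoded share of counts, 3.50%, 7.87% and 6.93% in S23, S24 and S25, ran opposite to the level of HSPA8, HSP90AA1, HSPB1 and HSPD1, with S23 lowest and S24 highest, and its part in the lower levels was not tested. S24 and S25, with the highest share, were left out together as an alternative chosen after seeing the data, with S23 assumed to vary as the WT libraries do. HSPA8 (−0.80, SE 0.124, edgeR adjusted p = 0.0222), HSP90AA1 (−0.71, SE 0.141, edgeR adjusted p = 0.0385) and DNAJB1 (−0.44, SE 0.130, edgeR adjusted p = 0.0979) then stayed past the adjusted p, so 3 members did, against 16.5% of 28816 genes, and none was called. BAG3 (−0.64), HSPB1 (−0.53), HSPD1 (−0.39), HSPH1 (−0.25), HSPA1B (−0.17) and HSPA1A (−0.12) did not pass there. Leaving out each of the 6 libraries in turn, HSPA8, HSP90AA1, DNAJB1, HSPB1, HSPD1 and BAG3 were past the adjusted p in all 6 fits, HSPH1 in 4 (not without S25 or S21), HSPA1B in 2 and HSPA1A in 1. In a bulk library, less RNA of a gene per cell and fewer cells that make it cannot be told apart.

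**Figure D4:**
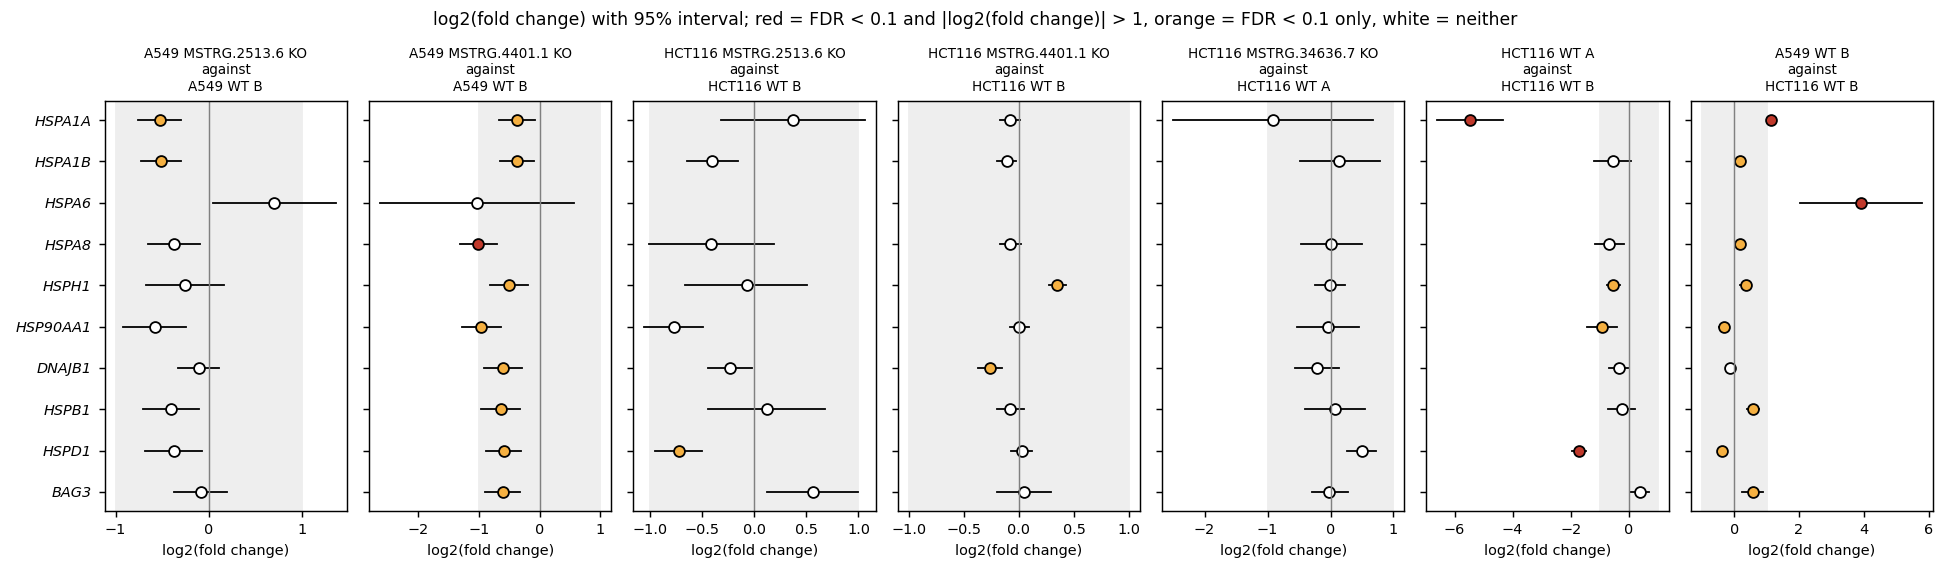
log2(fold change) of the 10 genes in each comparison, with approximate 95% intervals. They take a normal multiple of the SE from the edgeR fit and can exclude 0 where the unadjusted edgeR p is over 0.05. Red points are called, orange points have an adjusted p under 0.1 only, white points neither, and the grey band marks −1 to 1. Scales differ between panels and HSPA6 is missing where it was not tested; in A549 MSTRG.4401.1 KO all 10 points lie below 0, and in HCT116 WT A against HCT116 WT B HSPA1A lies at −5.47.

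In HCT116 MSTRG.4401.1 KO the same deletion label went with small differences. None of the 9 members tested was called by edgeR, against 2.62% of 26615 genes, and 2 were past the adjusted p, against 16.3%. None was called by DESeq2, whose share over all genes is not given here. In edgeR 3 had an unadjusted p under 0.05, with no share of all genes counted at that p. HSPH1, the HSP110 that acts as nucleotide exchange factor of HSP70, was at 179.1, 172.5 and 177.7 CPM in S10, S15 and S16 and at 142.0, 136.4 and 133.2 CPM in the WT libraries S12, S13 and S14. It rose by 0.35 (SE 0.0420, edgeR adjusted p = 0.00228), 1.27-fold, without overlap. DNAJB1 was at 157.4, 144.9 and 163.3 CPM against 185.5, 190.5 and 176.0 CPM and fell by 0.26 (SE 0.0562, edgeR adjusted p = 0.0260). In 1 fit of all HCT116 libraries, which shares their spread and holds the A549-like S8 and S9, no member passed. HSPH1 had an edgeR adjusted p of 0.954 in that fit, and the part of S8 and S9 in this was not tested. The spread here was narrow: HSP90AA1 was at 2474.4 ± 65.2 CPM against 2448.2 ± 60.1 CPM, and its log2(fold change) had an approximate 95% interval of −0.08 to 0.09. This interval and those that follow take a normal multiple of the SE and are narrower than the edgeR test implies. HSPA8 (interval −0.17 to 0.02), HSPD1 (−0.07 to 0.12), HSPB1 (−0.20 to 0.05) and BAG3 (−0.20 to 0.29) did not pass. HSPA1A (−0.08) and HSPA1B (−0.11) did not pass either, with edgeR adjusted p of 0.360 and 0.147.

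Whether the MSTRG.4401.1 KO differed between the lines was tested as an interaction in 1 fit of 12 libraries, as the log2(fold change) in A549 minus that in HCT116. It was past the adjusted p for 6 of the 10 members, against 26.9% of 30134 genes, and negative for each of the 6. Of all genes past it 43.0% were positive, and 55.5% under upper-quartile normalization, under which 6 members also passed, all negative. HSP90AA1 had −0.99 (SE 0.189, edgeR adjusted p = 0.00360), HSPA8 −0.96 (SE 0.174, edgeR adjusted p = 0.00274) and HSPH1 −0.89 (SE 0.181, edgeR adjusted p = 0.00541). BAG3 (−0.69), HSPD1 (−0.64) and HSPB1 (−0.59) followed with smaller differences, and HSPB1 passed in 7 of 12 fits without 1 library. Without S24 and S25, where S23 stood alone for the KO in A549, BAG3 did not pass (−0.73, SE 0.281). The pair HSPA1A (−0.32) and HSPA1B (−0.29), DNAJB1 (−0.38) and HSPA6 (−3.33, SE 1.80) did not pass. The median over the members was −0.67, and 0.10 over all genes tested.

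Among the libraries S8, S9 and S11, labelled HCT116 MSTRG.2513.6 KO, no member was called by edgeR among the 9 tested, against 0.933% of 26374 genes. In edgeR 4 had an unadjusted p under 0.05, with no share of all genes counted at that p. With DESeq2, which called more genes (count in the last section), none was called and 3 were past the adjusted p. The share of all genes past it with DESeq2 is not given here, so the 3 have no background. HSPD1 alone was past the adjusted p in edgeR, against 1.42%. It was at 597.8 CPM in S11, 484.0 in S8 and 516.0 in S9, below 999.7 to 1014.7 CPM in WT (log2(fold change) −0.72, SE 0.115, edgeR adjusted p = 0.0948). Of the 6 fits that left out 1 library, HSPD1 passed only in the one without S11. HSP90AA1 was at 1741.4, 1030.3 and 1077.9 CPM in S11, S8 and S9 against 2383.4 to 2502.0 CPM (−0.77, SE 0.142, edgeR adjusted p = 0.105). For several members S11 lay on one side and S8 and S9 on the other. HSPA8 had 720.5 CPM in S11 but 1158.8 and 1122.3 CPM in S8 and S9, and HSPA1A 81.8 CPM against 157.7 and 142.3 CPM, where WT had 113.1 to 120.9 CPM.

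Without S8 and S9, S11 stood alone for this KO and was assumed to vary as the WT libraries do. HSPA8 was then called, at −1.21 (SE 0.0626, edgeR adjusted p = 0.000727), against 8.69% of 30219 genes. Of the 9 members, 8 were past the adjusted p and lower, against 28.6% of genes past it and 15.9% past it and lower, and BAG3 did not pass (0.13, edgeR adjusted p = 0.664). HSPH1 was at −0.87, HSPD1 at −0.84, HSPB1 at −0.63, HSPA1A at −0.61, HSPA1B at −0.59, HSP90AA1 at −0.58 and DNAJB1 at −0.29. With S8 and S9 and without S11, HSPA1A (0.67), BAG3 (0.71), HSPB1 (0.36) and HSPH1 (0.18) had positive values and HSP90AA1 (−0.90), HSPD1 (−0.69), HSPA1B (−0.33), DNAJB1 (−0.22) and HSPA8 (−0.15) negative ones, each past the adjusted p, as were 62.6% of 28577 genes. With S8, S9 and S11 together, TMM scaling set the values of the KO group 0.20 (log2) above plain CPM, and the shift without S11 was not calculated. In CPM, HSPH1 was at 123.0 and 127.2 in S8 and S9 and 79.5 in S11, each below the WT libraries (133.2 to 142.0), and HSPB1 at 207.8 and 200.2 in S8 and S9 overlapped with WT (188.0 to 203.1), so the direction of HSPH1 depends on the scaling. HSPA6, with 34 and 10 counts in S8 and S9, entered that fit and was the 1 member called there, on few counts. The interaction of the MSTRG.2513.6 KO with cell line was past the adjusted p for no member in edgeR or DESeq2, against 9.88% of 29852 genes in edgeR, with 2 members at an unadjusted p under 0.05 (share of all genes not counted). It was past it for HSPA8 alone (0.84, SE 0.193, edgeR adjusted p = 0.0307) without S8 and S9.

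The HCT116 MSTRG.34636.7 KO was compared with HCT116 WT A, which shares its numbers 1A to 3A. None of the 9 members tested was called or past the adjusted p in edgeR, against 1.34% and 2.15% of 28816 genes. With DESeq2, which called more genes (count in the last section), none was called and 1 was past the adjusted p. The share of all genes past it with DESeq2 is not given here, so the 1 has no background. In edgeR 1 member had an unadjusted p under 0.05, with no share of all genes counted at that p. HSPD1 came nearest, at 447.5, 448.6 and 409.2 CPM against 294.5, 336.9 and 289.9 CPM, without overlap (log2(fold change) 0.50, SE 0.120, edgeR adjusted p = 0.116, unadjusted p = 0.00296). The KO libraries lay close to each other for HSPA8 (1016.9, 1016.5 and 1005.9 CPM) and HSP90AA1 (1228.0, 1243.6 and 1310.5 CPM). The WT A libraries did not. Library 2A had 648.2 CPM of HSPA8, against 1107.9 and 1213.6 CPM in 1A and 3A, and 86.7 CPM of HSPA1B, against 135.5 and 228.8 CPM. It had the highest level of HSP90AA1 (1926.2 CPM against 910.1 and 1076.0) and HSPB1 (249.9 CPM against 119.9 and 137.1). Its mitochondrially encoded share was 3.24%, against 2.32% and 2.15%, and the part of that library's state in these levels was not tested. Without 2A, HSPD1 was past the adjusted p (0.53, SE 0.0968, edgeR adjusted p = 0.0598). HSPA1A was at or under 5.30 CPM in all 6 libraries (log2(fold change) −0.91, SE 0.810, edgeR adjusted p = 0.643).

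The 2 HCT116 wild types carry the same label for genotype and could be compared directly, although set, handling and any other difference behind the letters cannot be told apart. In HCT116 WT A, 2 of the 9 members tested were called, against 7.06% of 27280 genes, and 4 were past the adjusted p and lower, against 6.71% of genes past it and lower and 12.3% past it in either direction. HSPA1A was at 2.18, 5.30 and 0.890 CPM in 1A, 2A and 3A and at 120.9, 119.3 and 113.1 CPM in the B libraries, 44.2-fold lower in the fit (log2(fold change) −5.47, SE 0.573, edgeR adjusted p = 0.000679). The summed pair was lower by far less: 137.7, 92.0 and 229.7 CPM against 347.3, 340.8 and 330.1 CPM, a 2.21-fold lower level (−1.14, SE 0.315, edgeR adjusted p = 0.0682). HSPA1B alone did not pass (−0.55, SE 0.325, edgeR adjusted p = 0.372), and 3A, at 228.8 CPM, lay above all B libraries.

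HSPD1 was the other member called, and its groups were far apart: 294.5, 336.9 and 289.9 CPM in WT A and 999.7, 1014.7 and 1002.2 CPM in WT B, 3.31-fold lower (log2(fold change) −1.73, SE 0.127, edgeR adjusted p = 0.000111). HSP90AA1 (−0.93, SE 0.259, edgeR adjusted p = 0.0704) and HSPH1 (−0.53, SE 0.115, edgeR adjusted p = 0.0267) were past the adjusted p alone. HSPH1 passed in 3 of the 6 fits without 1 library, and not without S12, S13 or S14. HSP90AA1 passed in 1, that without 2A, where the value was −1.28 (SE 0.129, edgeR adjusted p = 0.00234) and the gene was called. HSPA1B was also called without 3A (−1.02, SE 0.216, edgeR adjusted p = 0.0370). HSPA8 (−0.67), DNAJB1 (−0.34), HSPB1 (−0.25) and BAG3 (0.37) did not pass, with edgeR adjusted p of 0.158 to 0.614.

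Between wild-type A549 and HCT116 WT B most genes differed, with 62.9% of 27882 past the adjusted p, 31.2% past it and higher in A549, and 35.7% called. Of the 10 members, 9 were past the adjusted p, 7 of them higher in A549, and 2 were called. HSPA1A was at 214.7, 232.5 and 207.4 CPM in A549 and 113.1 to 120.9 CPM in HCT116, 2.22-fold higher (log2(fold change) 1.15, SE 0.0766, edgeR adjusted p = 1.22e-05), and the sum of the pair was 0.60 higher (SE 0.0744, edgeR adjusted p = 0.000336). HSPA6, with 24, 23 and 24 counts in A549 and 0, 0 and 6 in HCT116, had a fitted log2(fold change) of 3.92 (SE 0.963, edgeR adjusted p = 0.0101), which rests on few counts.

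The remaining members differed by less than 2-fold between the lines. HSPB1 (0.58, SE 0.102, edgeR adjusted p = 0.00191), BAG3 (0.57, SE 0.165, edgeR adjusted p = 0.0203) and HSPH1 (0.36, SE 0.0850, edgeR adjusted p = 0.00867) were higher in A549. In plain CPM the lines overlapped for BAG3 (55.9 ± 8.13 against 45.2 ± 6.69) and HSPH1 (146.8 ± 17.6 against 137.2 ± 4.47). HSP90AA1 (−0.33, SE 0.0761, edgeR adjusted p = 0.00762) and HSPD1 (−0.37, SE 0.0697, edgeR adjusted p = 0.00273) were lower. TMM scaling set the A549 values 0.26 (log2) above plain CPM in this comparison. The mean CPM of HSPA1A, 218.2 in A549 against 117.7 in HCT116, differed by less than 2-fold, so its call rests on that scaling. It stayed called in all 12 alternatives that kept it as a separate gene (1.09 to 1.24). HSPA8 (0.18) and HSPA1B (0.18) were past the adjusted p as higher in A549 under TMM, whereas their mean CPM was lower there, 1496.5 against 1576.4 for HSPA8 and 209.3 against 221.6 for HSPA1B, so their direction depends on the scaling. Under the leave-one-out fits HSPA8 passed in 3 of 6 and HSPA1B in 1. DNAJB1 did not pass (−0.12, edgeR adjusted p = 0.181), although in plain CPM it was lower in A549 without overlap (140.9 ± 8.56 against 184.0 ± 7.40).

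Besides the members, 82 genes of the same machinery in 10 lists were followed, of which 78 or 79 were tested per comparison. In A549 MSTRG.4401.1 KO, 50 of 78 were past the adjusted p and lower and 4 were higher, where 43.7% of all genes were past it and 22.4% past it and lower. Each of the 8 subunits of CCT, the cytosolic chaperonin that folds actin and tubulin, was lower (list median −0.75), from CCT7 at −0.90 (SE 0.137, edgeR adjusted p = 0.00262) to TCP1 at −0.62 (SE 0.141, edgeR adjusted p = 0.0125). Of the endoplasmic reticulum chaperones 8 of 9 were past the adjusted p and lower (median −0.79), led by HSPA5, the HSP70 of that compartment, at 264.6 ± 38.4 against 552.6 ± 21.8 CPM (−1.14, SE 0.130, edgeR adjusted p = 0.000791). The list of HSP90AB1 and HSP90 cochaperones had 9 of 12 past the adjusted p and lower (median −0.50), with HSP90AB1 itself at −0.69 (SE 0.146, edgeR adjusted p = 0.00918).

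In the counts of this paragraph lower and higher mean past the adjusted p. Of the mitochondrial chaperones and proteases 5 of 8 were lower in A549 MSTRG.4401.1 KO, of the BAG and other exchange factors 4 of 6, of the further HSP70 and HSP110 genes 4 of 8 with 1 higher, and of the J domain genes 4 of 10 with 1 higher. Values below 0, whatever the adjusted p, were found in 8 of 8, 6 of 6, 6 of 8 and 9 of 10 genes of these lists. Of 5 small heat shock genes tested 1 was lower and 1 higher. In the protein quality control list 5 of 6 were lower, led by VCP, an ATPase that extracts ubiquitinated proteins, at 177.7 ± 70.8 against 530.7 ± 36.2 CPM (−1.64, SE 0.264, edgeR adjusted p = 0.00321). Among HSF1 and its relatives, IER5, which acts on HSF1, fell by 1.12 (SE 0.139, edgeR adjusted p = 0.00114), HSF4 rose by 1.12 (SE 0.270, edgeR adjusted p = 0.0152), and HSF1 itself was at −0.20 (SE 0.117, edgeR adjusted p = 0.224). The median over all genes tested was 0.12.

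In HCT116 MSTRG.4401.1 KO, 18 of 79 list genes were past the adjusted p and higher and 5 lower, where 16.3% of all genes were past it. All 12 genes of the HSP90 list had positive values, 6 of them past the adjusted p (median 0.18), with CHORDC1 at 0.36 (SE 0.0418, edgeR adjusted p = 0.00191) and STIP1, which links HSP70 to HSP90, at 0.26 (SE 0.0508, edgeR adjusted p = 0.0182). All 8 CCT subunits were positive, 5 past the adjusted p (median 0.14), with TCP1 at 0.26 (SE 0.0380, edgeR adjusted p = 0.00535). Of 9 endoplasmic reticulum chaperones, 1 was past it and higher and 3 were lower (median −0.02). Each other list had at most 2 genes past it in a direction. In the interaction all 8 CCT subunits, 8 of 9 endoplasmic reticulum chaperones and 9 of 12 genes of the HSP90 list were past the adjusted p with negative values, against 26.9% of all genes past it. So were 6 of 8 mitochondrial genes, 4 of 6 exchange factors and 4 of 6 genes of the HSF1 list. The HSP70 and HSP110 list had 3 of 8, the J domain list 3 of 10 with 1 positive, and the quality control list 3 of 6 with 1 positive. Of 6 small heat shock genes tested none passed (median 0.18). HSF1 had −0.38 in the interaction (SE 0.142, edgeR adjusted p = 0.0806) and HSP90AB1 −0.80 (SE 0.174, edgeR adjusted p = 0.00748).

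**Figure D5:**
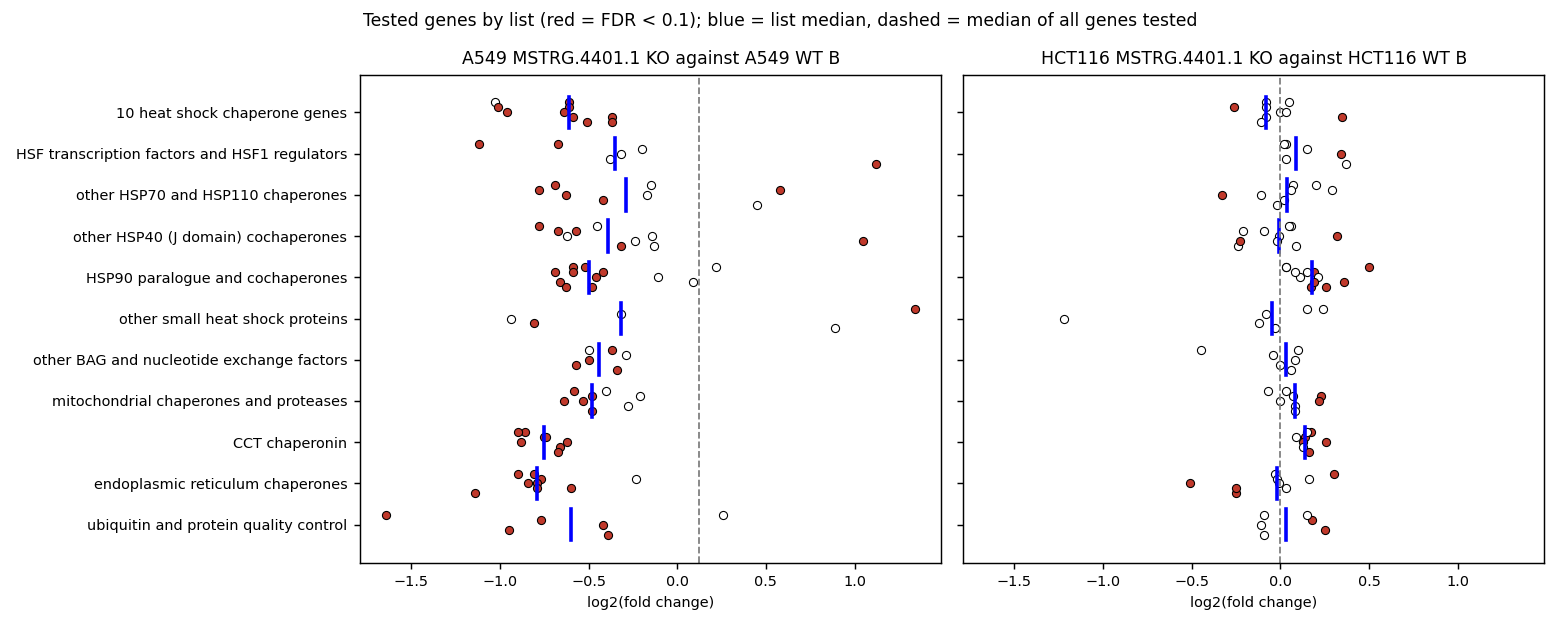
log2(fold change) of the tested genes of each list in the MSTRG.4401.1 KO of A549 and of HCT116; each point is 1 gene, red where the adjusted p is under 0.1, blue lines are list medians and the dashed line is the median over all genes tested. CCT medians lie at −0.75 in A549 and 0.14 in HCT116, and those of the 10 members at −0.61 and −0.08.

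In the other comparisons the counts of list genes past the adjusted p were as follows. There were 2 higher and 1 lower of 78 in A549 MSTRG.2513.6 KO (5.97% of all genes past the adjusted p), 1 lower of 79 in S8, S9 and S11 (1.42%) and 1 higher of 78 in HCT116 MSTRG.34636.7 KO (2.15%). HCT116 WT A had 3 higher and 8 lower of 78 against WT B (12.3% of all genes), among them the J domain gene DNAJA4, at 32.7 ± 5.49 against 91.5 ± 2.80 CPM (2.82-fold lower, edgeR adjusted p = 0.000393), and HYOU1, an endoplasmic reticulum chaperone related to HSP70, at 357.0 ± 201.9 against 162.9 ± 21.2 CPM (1.12, SE 0.347, edgeR adjusted p = 0.0976). Between A549 and HCT116 wild types 39 of 79 were higher and 23 lower, where 62.9% of all genes were past the adjusted p. HSPA2, a further HSP70, was 49.4-fold higher in A549 (185.4 ± 1.32 against 4.49 ± 0.449 CPM) and DNAJA4 68.9-fold lower (1.08 ± 0.341 against 91.5 ± 2.80 CPM), both with edgeR adjusted p under the threshold (6.51e-08 and 4.67e-07). VCP was 1.75 higher in A549 (SE 0.0908, edgeR adjusted p = 3.48e-06) and DNAJC3 1.89 lower in log2 terms. HSF1 passed in none of the 7 comparisons between groups, with log2(fold change) of −0.20 to 0.33. HSP90AB1 was lower in A549 than in HCT116 (−0.98, SE 0.0850, edgeR adjusted p = 4.83e-05) and in WT A than in WT B (−0.65, SE 0.196, edgeR adjusted p = 0.0931). It did not pass in A549 MSTRG.2513.6 KO (−0.43, edgeR adjusted p = 0.164), in S8, S9 and S11 (−0.98, SE 0.228, edgeR adjusted p = 0.126), or in the HCT116 KO of MSTRG.4401.1 (0.08) or MSTRG.34636.7 (0.16).

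As a description, the genes outside the lists whose log2(CPM + 1) ran most like that of the summed pair HSPA1A and HSPA1B were sought. Over the 9 A549 libraries and 12416 genes these were NEDD9 (Pearson's r 0.966), TOM1L1 (0.962), NFX1 (0.956), KIF20A (0.955) and PPARG (0.953). Of the other members tested this way, HSPD1 had 0.825, HSPB1 0.784, HSP90AA1 0.766, HSPH1 0.718, HSPA8 0.576, DNAJB1 0.491 and BAG3 0.190. The 12 HCT116 libraries without the MSTRG.2513.6 KO group form an A and a B set of 6, so values are given within each set. Over all 12 and 12729 genes the most alike genes were WDR5, MAGEA2, PDRG1, IMP4 and DOLK. Within the A set these had r of 0.948, 0.950, 0.970, 0.970 and 0.963, and within the B set 0.469, 0.626, 0.629, 0.624 and 0.919. HSPA8 ran with the pair in both sets (0.883 in A and 0.945 in B) and DNAJB1 less so in A (0.630 and 0.934). HSPH1 ran opposite to the pair in both (−0.668 and −0.687), as did HSP90AA1 (−0.629 and −0.262). HSPB1 (−0.580 and 0.878), HSPD1 (0.070 and −0.683) and BAG3 (0.386 and −0.524) differed in sign between the sets. The points of a set share scaling and fall in 2 groups of 3.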

How the data were processed

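Total RNA of 24 libraries (8 groups of 3) was depleted of rRNA, made into directional libraries and sequenced by the authors on an Illumina instrument. Per the labels, reads were trimmed with Trim Galore 0.6.6, checked with FastQC 0.11.9 and aligned with HISAT2 2.2.1 to hg38. The authors deposited 1 table per library of whole-number read counts per gene symbol, not normalized. The annotation release, the use of strand, the treatment of reads that match several genes and the step from StringTie quantification to whole counts were not given in the sources used here. Groups came from the library titles. HCT116 WT B was taken as control of the libraries with S numbers and HCT116 WT A of those numbered A, since the labels share these numbers. The 60641 symbols shared by all libraries were used, and 3 symbols present only in the libraries numbered A were left out.

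Counts were scaled to CPM by the total count, and tested with the quasi-likelihood test of edgeR 4.0.16 in R 4.3.3 (TMM, filterByExpr), separately for each comparison, with Benjamini-Hochberg adjustment over all genes tested. A call needed an adjusted p under 0.1 and an absolute log2(fold change) over 1, the thresholds in the methods of the study, and an interaction an adjusted p under 0.1. With 3 against 3 libraries an exact permutation test cannot go below 0.1, so none was used. DESeq2 1.42.0 was an alternative. Besides all 10 members, the text names HSF1, HSP90AB1, per comparison up to 4 called list genes with the largest change among those without overlap and with a mean log2 CPM from 1 up, and the 5 genes most alike to the HSPA1A and HSPA1B sum among genes with a mean of at least 5 CPM. CCT7, TCP1, CHORDC1 and STIP1 fall outside this rule and were chosen after their values were seen, as were the genes shown for the identity of libraries. Members and lists were chosen with earlier results of these data known. Scripts were tested on simulated data. Sequences came from GRCh38 (GENCODE) and RefSeq promoters through Python 3.11.15 and Biopython 1.88.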

Additional observations from a re-analysis of the deposited data

Results flagged for a closer look

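In 6 of the 10 members, against 26.9% of 30134 genes, the MSTRG.4401.1 KO differed between A549 and HCT116 by a test of the difference itself (edgeR interaction, A549 minus HCT116, 12 libraries, log2 scale). The values were −0.99 for HSP90AA1 (edgeR adjusted p = 0.00360), −0.96 for HSPA8 (edgeR adjusted p = 0.00274), −0.89 for HSPH1 (edgeR adjusted p = 0.00541), −0.69 for BAG3 (edgeR adjusted p = 0.0359), −0.64 for HSPD1 (edgeR adjusted p = 0.0228) and −0.59 for HSPB1 (edgeR adjusted p = 0.0606). HSPB1 passed in 7 of 12 fits that left out 1 library, and BAG3 did not pass without S24 and S25 (−0.73, edgeR adjusted p = 0.125). The value of HSPH1 was 0.35 in HCT116 and −0.51 in A549.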

How the results depend on the processing

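Over all alternatives the values of single members kept their direction and side of the threshold in 1195 cases, lost the call in 10, gained it in 42, moved in 43 and reversed in 10. Moved means a change of sign with neither fit past the adjusted p, and reversed one with at least 1 fit past it. The gains include the setting without the fold threshold, where each gene past the adjusted p alone gains the call by definition. In A549 MSTRG.4401.1 KO the 1 member called became 0 under upper-quartile normalization (HSPA8 −0.85), with at least 10 counts in every library and without S24 and S25, and 2 with DESeq2, DESeq2 size factors or no filter; leaving out 1 library gave 0 to 2, with 0 without S24 and 2 without S23 or S22. Without the fold threshold the members counted were 2 in A549 MSTRG.2513.6 KO, 9 in that of MSTRG.4401.1, 1 and 2 in the same KO of HCT116, 4 in HCT116 WT A against WT B and 9 between the lines. Between the lines 1 was called with at least 10 counts, where HSPA6 drops out, and 1 with the pair summed. Among S8, S9 and S11, labelled HCT116 MSTRG.2513.6 KO, 1 was called without S8 and S9, where HSPA1A (−0.61) and HSPB1 (−0.63) reversed, and 0 to 1 without 1 library, with 1 without S11, while HSPH1 ran from −0.24 to 0.18, reversed without S11 under TMM although its CPM was below WT in each library. The 1 called without S11 was HSPA6. With the other HCT116 wild type as control 1 was called there (HSPA1A 5.77, HSPD1 reversed at 0.96), 2 in HCT116 MSTRG.4401.1 KO (HSPA1A reversed at 5.38, HSPD1 1.74, DNAJB1 reversed at 0.07) and 2 in HCT116 MSTRG.34636.7 KO (HSPA1A −6.35, and reversed values of −1.23 for HSPD1, −0.66 for HSPA8, −0.41 for HSPA1B and 0.34 for BAG3); the cause was not tested. The interaction of MSTRG.2513.6 KO passed for 0 to 4 members without 1 library, with 4 without S11, and that of MSTRG.4401.1 KO for 5 to 9. In the main fits 9.88% and 26.9% of all genes passed, and the share in each alternative is not given here.

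Counts over all genes depended on the setting. The 246 genes called for S8, S9 and S11 became 2785 with DESeq2, 3487 in 1 fit of all HCT116 libraries, 975 with at least 10 counts, 1 without a filter, 2625 without S8 and S9, 900 with the other wild type, and 0 to 10636 without 1 library. The 697 in HCT116 MSTRG.4401.1 KO became 27 in 1 fit and 2743 with the other wild type. Each fit of all HCT116 libraries held S8 and S9. The 385 in HCT116 MSTRG.34636.7 KO became 887 with DESeq2, 188 without a filter, 90 in 1 fit, 4059 with the other wild type and 80 to 746 without 1 library. The 3842 in A549 MSTRG.4401.1 KO became 1945 without S24 and S25, the 9962 between the lines 5418 with at least 10 counts, and the 2949 of the MSTRG.2513.6 interaction 4847 with DESeq2, 1296 without a filter, 1940 with at least 10 counts and 360 to 12590 without 1 library. Libraries with the same number did not deviate together (r of −0.08 to 0.08 across genes), so the numbers were not taken as pairs. With the number as replicate block 166 genes and 0 members were called in HCT116 MSTRG.34636.7 KO, and 1864 genes and 2 members in HCT116 WT A against WT B, the latter with sets that share a number only. HSPA6 was limited by depth, with at most 50 counts in a library.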
